A study of Mus musculus with 6 samples.

Results

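Fibroblast identity surface markers and the PDGF receptors were followed in wild-type (WT) and Mcm8 knockout (KO) mouse embryonic fibroblasts (MEFs). The 10 genes were set by name: Pdgfra, Pdgfrb, Thy1, Cd34, Ly6a, Dpp4, Pi16, Fap, S100a4 and Dpt. All 10 were found among the 55565 genes of the deposited count and FPKM tables, and all 10 were among the 26898 genes tested. Bulk RNA sequencing gave 3 WT libraries (WT1 to WT3) and 3 KO libraries (KO1 to KO3), with 12722979 to 19019695 counts per WT library and 15954793 to 21022755 per KO library. The WT cells carried intact Mcm8, and the KO cells were Mcm8-/- after CRISPR-Cas9 deletion of exon 7. Mcm8+/- parents of mixed C57BL/6J and ICR background were crossed, and both genotypes were cultured from trunk tissue of their embryos at E13.5. Both were immortalized with the lentivirus SV40gp6, selected with puromycin and grown in DMEM with fetal bovine serum, so neither genotype is primary tissue. The methods call the 3 samples of a genotype biological repeats but do not say whether they came from different embryos or dishes. The spread between these samples may therefore be technical. The p-values measure no more than this spread, which the edgeR test took from a trend over all genes and not from each gene.

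Fibroblasts make and remodel the extracellular matrix and carry few markers that are theirs alone, so they are usually recognized by a combination of surface proteins. PDGFRA and PDGFRB are receptor tyrosine kinases that PDGF dimers bring together, which starts RAS, PI3K and phospholipase C signalling and the early serum response genes. THY1, CD34 and LY6A (SCA-1) mark stromal cells in many tissues, DPP4 and PI16 mark adventitial fibroblasts regarded as progenitors, and FAP is best known from activated fibroblasts. S100A4 (FSP1) is a cytosolic calcium-binding protein and DPT (dermatopontin) a secreted matrix protein, so neither is a surface protein although both are used to label fibroblasts.

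The stretch of 250 bases upstream of the start site was available from RefSeq (GRCm38.p6) for 6 of the 10 genes. It is shown here for Cd34, which was higher in KO, for Dpt, which was lower, for Pdgfra, which did not pass the test, and for S100a4, which holds a TATAAA and whose genotypes overlapped, with TATAAA in capitals where it occurs.
Pdgfra, chr5:75152001-75152250, plus strand: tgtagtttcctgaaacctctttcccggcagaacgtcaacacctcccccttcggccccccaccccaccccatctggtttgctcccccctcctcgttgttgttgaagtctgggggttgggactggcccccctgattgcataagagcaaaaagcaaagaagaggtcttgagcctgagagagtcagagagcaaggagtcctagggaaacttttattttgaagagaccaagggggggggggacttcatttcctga
Cd34, chr1:194938571-194938820, plus strand: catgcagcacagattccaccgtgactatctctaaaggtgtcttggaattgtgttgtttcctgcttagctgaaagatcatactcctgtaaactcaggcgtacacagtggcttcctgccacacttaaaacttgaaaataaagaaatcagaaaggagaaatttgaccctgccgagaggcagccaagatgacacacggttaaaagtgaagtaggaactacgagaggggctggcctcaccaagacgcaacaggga
S100a4, chr3:90603520-90603769, plus strand: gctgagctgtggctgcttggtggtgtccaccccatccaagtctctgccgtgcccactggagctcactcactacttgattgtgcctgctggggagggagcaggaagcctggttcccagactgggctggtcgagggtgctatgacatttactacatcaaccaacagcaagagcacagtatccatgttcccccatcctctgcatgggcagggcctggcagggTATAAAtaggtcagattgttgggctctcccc
Dpt, chr1:164796413-164796662, plus strand: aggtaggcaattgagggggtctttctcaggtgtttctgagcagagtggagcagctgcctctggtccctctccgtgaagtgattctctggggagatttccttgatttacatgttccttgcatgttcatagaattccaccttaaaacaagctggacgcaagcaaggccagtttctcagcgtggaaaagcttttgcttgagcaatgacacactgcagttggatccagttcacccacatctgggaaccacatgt
TATAAA, searched on both strands, was found at position -31 of S100a4, counted back from the base before the start site, and at -227 of Dpp4, but in none of the other 4 stretches. It was present in 12.4% of the 32851 mouse promoters of the same length. CCAAT occurred only in Pi16, at -64, against 33.8% of all promoters. None of the 6 stretches held GGGCGG (32.7% of all promoters), CACGTG (6.02%) or TGANTCA (6.75%), which says only that these letters are absent from these windows.

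In the KO libraries, Cd34 was 2.77-fold higher and Fap 3.18-fold lower than in WT, Thy1 was at 49.1% of its WT level and Pdgfrb at 59.9%, while Pdgfra did not pass the test. Ly6a was 1.56-fold higher and Dpt was at 59.3% of WT. Dpp4 and Pi16 were barely detected. A gene counted as differentially expressed (DEG) when its level changed by more than 1 on the log2 scale in either direction with an adjusted p-value below 0.05 in edgeR's quasi-likelihood test. By this rule 2 of the 10 genes were higher in KO (Cd34 and Dpp4), against 1.75% of all genes tested, and 2 were lower (Thy1 and Fap), against 0.665%. Without Dpp4, whose call held in 4 of 14 alternatives and was lost in 5 of the 6 fits that left out 1 library, 1 gene was higher. With the adjusted p-value alone, 3 were higher (4.97% of all genes) and 5 were lower (4.03%). Among those lower was S100a4, whose genotypes overlapped and which passed in 5 of 17 alternatives. With DESeq2 2 were higher and 4 lower. The libraries of the genotypes did not overlap for 8 of the 10, 4 of them higher in KO (11.6% of all genes) and 4 lower (10.1%). The median log2 fold change was -0.21 over the 10 genes and -0.61 over the 8 with more than 3 counts in every library, against 0.01 over all genes.

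**Figure D1:**
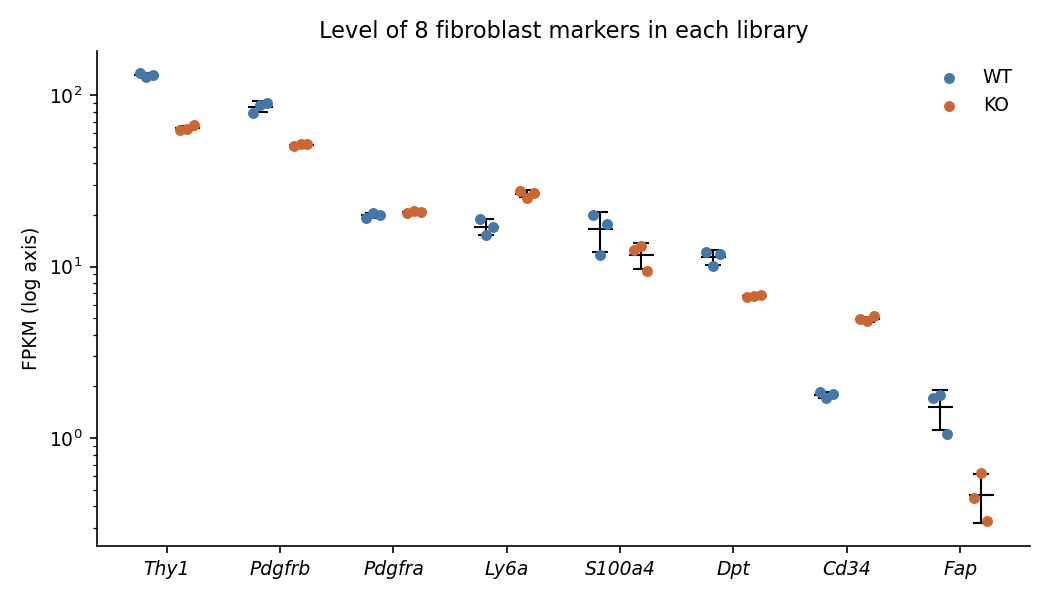
FPKM (log axis) of the 8 genes with more than 3 counts in every library, 1 point per WT (blue) or KO (orange) library, with horizontal lines for the mean and 1 SD either side. Thy1, Pdgfrb, Dpt and Fap are lower in all KO libraries and Cd34 and Ly6a higher, the points of S100a4 overlap, and those of Pdgfra lie between 19.1 and 21.0.

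FPKM is divided by gene length, so levels can be set beside each other across genes. In WT the order by mean FPKM was Thy1 (131), Pdgfrb (85.7), Pdgfra (19.9), Ly6a (17.1), S100a4 (16.5), Dpt (11.4), Cd34 (1.79) and Fap (1.51). The WT libraries of Ly6a and S100a4 overlapped, as did those of S100a4 and Dpt and those of Cd34 and Fap. In KO, Thy1 (64.4) and Pdgfrb (51.3) still stood first, followed by Ly6a (26.6), Pdgfra (20.8), S100a4 (11.7), Dpt (6.73), Cd34 (4.95) and Fap (0.467). No neighbours in the KO order overlapped. Pi16 and Dpp4 came last in both genotypes, with mean levels from 0.0028 to 0.0633 FPKM.

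Pdgfrb (ENSMUSG00000024620, chr18:61178222-61218133, plus strand, GRCm39) encodes the receptor that binds PDGF-BB and PDGF-DD. Its level was 78.6, 88.1 and 90.5 FPKM in WT1, WT2 and WT3, and 50.4, 51.9 and 51.6 FPKM in KO1, KO2 and KO3. All KO libraries were below all WT libraries, and the KO values lay closer together. The scaled level fell from 472 ± 36.5 to 282 ± 3.83 CPM (counts scaled to the library total; mean ± SD, n = 3 each). The log2 fold change was -0.74 (SE 0.07, 95% interval -0.87 to -0.61) with an adjusted p of 1.06e-25 in edgeR, a difference that did not reach the 2-fold limit for a DEG. A bulk library cannot tell fewer cells of a type from less RNA per cell, here or for any gene below.

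Pdgfra (ENSMUSG00000029231, chr5:75312953-75358876, plus strand), whose receptor binds PDGF-AA and most other dimers, had 19.1, 20.6 and 19.96 FPKM in WT and 20.7, 21.0 and 20.7 FPKM in KO. The KO values were a little above all WT values, but the log2 fold change was 0.07 (SE 0.07) with an adjusted p of 0.682. Its 95% interval, from -0.07 to 0.20, bounds the difference on the log2 scale. The ratio of Pdgfra to Pdgfrb within a library, which does not depend on scaling, was 0.243, 0.233 and 0.221 in WT and 0.410, 0.405 and 0.401 in KO. Its mean was 0.232 ± 0.0113 in WT and 0.405 ± 0.00458 in KO, 1.74-fold higher, and the libraries did not overlap. The exact two-sided permutation p was 0.1, the smallest that 3 against 3 libraries can give.

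**Figure D2:**
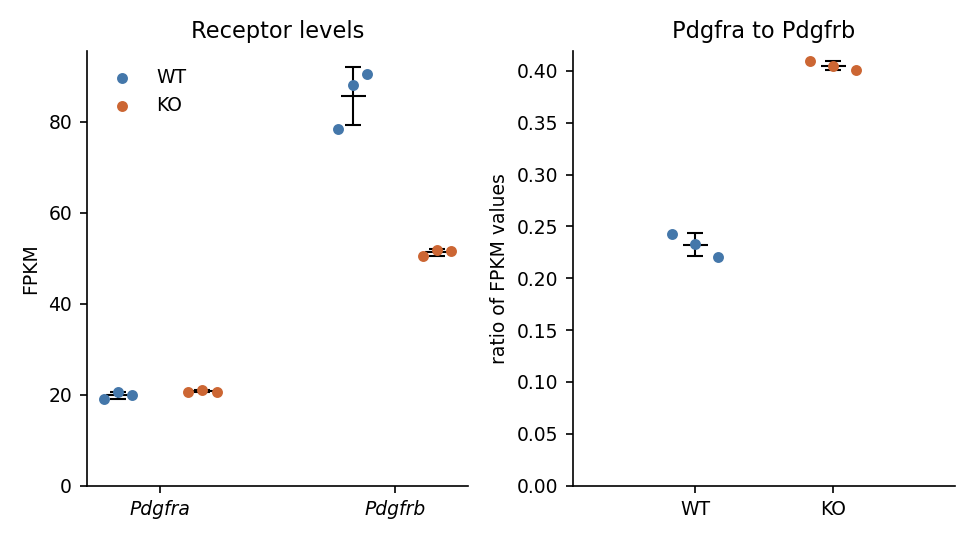
FPKM of Pdgfra and Pdgfrb (left) and the ratio of the 2 FPKM values (right) in each WT (blue) and KO (orange) library, with lines for the mean and 1 SD either side. Pdgfra lies close between genotypes, Pdgfrb is lower in KO, and the ratio lies at 0.221 to 0.243 in WT and 0.401 to 0.410 in KO.

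Genes around the receptors were examined by lists. Of the 4 PDGF ligands, 1 was a DEG and 2 passed by the adjusted p-value alone, both higher in KO. Pdgfa, the ligand of PDGFRA, was at 3.92, 3.07 and 3.76 CPM in WT and 12.3, 14.1 and 12.8 CPM in KO, with no overlap. Its log2 fold change was 1.86 (SE 0.17, adjusted p = 3.29e-26). Pdgfd, a ligand of PDGFRB, changed by 0.39 (adjusted p = 0.0140). Pdgfb had few reads and changed by 1.45 (adjusted p = 0.0695), and Pdgfc, the most abundant ligand by CPM, by -0.03 (adjusted p = 0.886). Of the 4 other class III receptor genes and relatives 3 were tested and none passed. Pdgfrl, the only 1 above 1 CPM, changed by 0.30 (adjusted p = 0.0714), with 0 counts of Kit in every library and 0 to 12 of Csf1r, a gene beside Pdgfrb. Cdx1, on its other side, had 0 to 5 counts, and Gsx2, beside Pdgfra like Kit, had 0.

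For the 28 genes of receptor-proximal signalling (adaptors, RAS regulators, PI3K, phospholipase C, Src family kinase, STAT and phosphatase genes), the median log2 fold change was 0.03. Of these, 1 was a DEG, Ptprj, a receptor phosphatase that acts on PDGFRB, at 1.08 (SE 0.13, adjusted p = 2.04e-15). By the adjusted p-value alone, 3 were higher and 2 lower. The 22 early genes known to respond to PDGF and serum had a median of 0.36, with 4 DEGs, all higher in KO. By the adjusted p-value alone 11 were higher and 1, Myc, was lower (-0.32, adjusted p = 5.47e-04). Egr1, a zinc finger transcription factor of the immediate early response, was at 68.7 ± 3.71 CPM in WT and 142 ± 9.52 CPM in KO. Egr3 rose from 2.33 ± 0.389 to 8.30 ± 1.18 CPM, and Ptgs2, which makes prostaglandins, from 20.1 ± 3.12 to 43.6 ± 2.35 CPM. Egr2 changed by 1.09 on the log2 scale (adjusted p = 0.00245). Whether these changes and those of the receptors are linked was not tested.

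**Figure D3:**
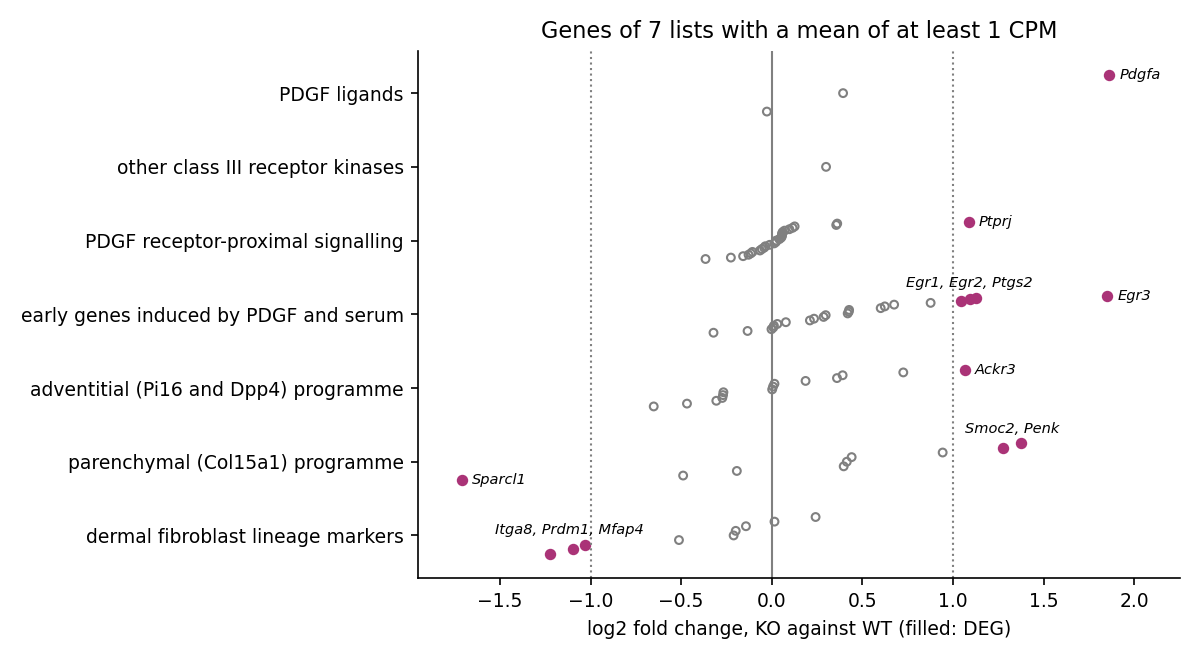
Log2 fold change of KO against WT for each gene with a mean of at least 1 CPM in 7 lists around the receptors and fibroblast types, with DEGs filled and named and dotted lines at -1 and 1. DEGs to the right are Pdgfa, Ptprj, 4 early genes, Ackr3, Penk and Smoc2, and those to the left are Sparcl1 and 3 dermal genes.

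Among the surface markers with no protease activity, Thy1 fell and Cd34 and Ly6a rose. Thy1 (ENSMUSG00000032011, chr9:43954681-43959876, plus strand) encodes a small glycoprotein held in the membrane by a GPI anchor. Its level was 134, 128 and 131 FPKM in WT and 62.8, 63.6 and 66.6 FPKM in KO. The spread within each genotype was small beside the gap between them. In CPM, 394 ± 9.30 in WT stood against 194 ± 5.99 in KO, a log2 fold change of -1.03 (SE 0.07, adjusted p = 3.44e-47). This is just past the 2-fold limit, and a test of whether the change exceeds 2-fold gave an adjusted p of 1. Of the protein-coding genes next to Thy1, Gm49380 had 0 counts, and Nectin1, 211 kb away on the other side, was higher in KO (0.66, adjusted p = 2.95e-10). The patterns most like that of Thy1 over the 6 libraries, by Euclidean distance of centred log2 CPM among 11761 protein-coding genes, were those of Ctsk (0.0927), Ahcyl (0.112) and Prnp (0.126).

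Cd34 (ENSMUSG00000016494, chr1:194621127-194643587, plus strand) encodes a transmembrane sialomucin of stromal, endothelial and blood progenitor cells. It had 1.85, 1.71 and 1.81 FPKM in WT and 4.92, 4.79 and 5.12 FPKM in KO. All KO libraries were above all WT libraries. The level rose from 13.1 ± 0.539 to 36.2 ± 1.25 CPM, with a log2 fold change of 1.47 (SE 0.11, adjusted p = 2.29e-39). An antisense long noncoding RNA that overlaps Cd34, Gm16897, had 0 to 1 counts in WT and 3 to 17 in KO, and whether strand was used in counting is not stated, so its reads cannot be told from those of Cd34. The neighbours Cd46 (-1.01, adjusted p = 0.0339) and Plxna2 (-0.23, adjusted p = 0.0348) were lower. Of the other CD34 family sialomucins, Podxl was a DEG at 1.47 (adjusted p = 0.0317), with 0.468 CPM in WT and 1.25 in KO, and Podxl2 changed by 0.64 (adjusted p = 0.0510). The call of Podxl was lost with DESeq2 (0.132), limma-voom (0.0734), an FPKM above 0 in every library (0.0516) and no filter (0.0654), and without WT3 (0.233), KO1 (0.307) or KO3 (0.0667). The patterns nearest to Cd34 were those of Itga3 (distance 0.136), Bcl3 (0.175) and Ctsc (0.180).

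Ly6a (ENSMUSG00000075602, chr15:74866726-74869880, minus strand), which encodes another GPI-anchored protein, had 18.9, 15.4 and 17.1 FPKM in WT and 27.8, 25.2 and 27.0 FPKM in KO. The genotypes did not overlap, and the log2 fold change of 0.64 (SE 0.10, adjusted p = 1.81e-08) stayed short of the DEG limit. The gene lies in a cluster of similar Ly6 genes between which reads can be split, so its level is less certain. Its neighbour Ly6i had 0 to 1 counts, and Ly6c1, the neighbour on the other side, changed by -0.27 (adjusted p = 0.403). Of 17 other Ly6 family genes, 11 were tested, 0 were DEGs and 1, Lynx1, passed by the adjusted p-value alone (0.58, adjusted p = 0.00244). Its adjusted p was 0.0516 with DESeq2, 0.0509 with limma-voom, 0.0567 without WT3 and 0.151 without KO1.

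DPP4 and FAP are related serine peptidases of the cell surface, and their genes lie 88.7 kb apart with Gcg, at 0 counts, between them. Fap (ENSMUSG00000000392, chr2:62331287-62404419, minus strand) had 1.70, 1.77 and 1.05 FPKM in WT and 0.447, 0.624 and 0.329 FPKM in KO. WT3 was the lowest WT library and KO2 the highest KO library, and the genotypes did not overlap. The level fell from 8.57 ± 2.22 to 2.66 ± 0.842 CPM, with a log2 fold change of -1.67 (SE 0.20, adjusted p = 7.13e-15), from 30 to 141 counts per library. On log2 FPKM with limma the adjusted p was 0.0695 with a pseudocount of 1 and 0.0613 with 0.1. The neighbour Ifih1 changed by 0.20 (adjusted p = 0.286). The nearest patterns were those of Nnmt (distance 0.637), Mcm8 (0.682) and Fibin (0.689), farther away than those of Thy1 or Cd34.

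Dpp4 (ENSMUSG00000035000, chr2:62160417-62242575, minus strand) had 0, 0 and 1 counts in WT and 6, 6 and 9 in KO. All KO libraries were above all WT libraries, but at these counts the size of the change is poorly known. The 21 KO counts against 1 WT count gave a rate ratio of 17.7, with an exact 95% counting interval of 2.85 to 733. The edgeR adjusted p was 0.0398, and it stayed below 0.05 in 4 of 14 alternatives. It was 0.118 with the replicate number as a block and 0.0822 with no gene filter. With 1 library left out, it was 0.0827 without WT1, 0.123 without WT2, 0.0840 without KO1, 0.110 without KO2 and 0.267 without KO3. The ratio of Dpp4 to Fap by FPKM was 0, 0 and 0.0080 in WT and 0.0996, 0.0911 and 0.269 in KO, without overlap (exact two-sided permutation p = 0.1, the smallest possible). On the side away from Fap, the neighbour Slc4a10 had 0 to 5 counts. The patterns nearest to Dpp4, which at these counts depend on the prior count, were those of Ramp3 (distance 0.266), Card10 (0.369) and Sardh (0.401). Of 7 related serine peptidase genes, 6 were tested, none was a DEG and 1, Dpp7, was lower by the adjusted p-value alone (-0.26, adjusted p = 0.0398). The most abundant of them, Prep, changed by 0.0041 (adjusted p = 0.980) and Dpp8 by -0.20 (adjusted p = 0.0535, but 0.0403 in the robust fit). Dpp4 and Fap lie on the chromosome of Mcm8, 70.4 and 70.3 Mb from it, and an effect of alleles that travel with the edited copy was not tested.

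Pi16 (ENSMUSG00000024011, chr17:29536654-29549567, plus strand), a peptidase inhibitor of the CAP family, had 0, 0 and 2 counts in WT and 1, 2 and 0 in KO. Both genotypes were at or under the floor of 3 counts per library, so no difference was detectable at this depth. Its neighbours BC004004 (-0.08, adjusted p = 0.683) and Mtch1 (0.14, adjusted p = 0.247) had reads but did not pass. Of 11 other CAP family genes 4 were tested and none passed by either rule in edgeR, with Glipr2 at -0.08 (adjusted p = 0.597) and Crispld2 at -0.12 (adjusted p = 0.404). Of the 20 other genes of the adventitial programme that PI16 and DPP4 mark, 2 were DEGs, both higher in KO. With the adjusted p-value alone 4 were higher and 4 lower, around a median of 0.04. Ackr3, a scavenging chemokine receptor, rose from 8.82 ± 1.07 to 18.4 ± 1.41 CPM (log2 fold change 1.06). In the parenchymal programme of 10 genes, Penk (1.37) and Smoc2 (1.28) rose and Sparcl1 (-1.71) fell as DEGs, with a median of 0.40. By the adjusted p-value alone 5 of its genes were higher and 2 lower. Among 12 tested dermal lineage markers 3 fell and 1 rose as DEGs, and those that fell were Itga8 (-1.22), Prdm1 (-1.10) and Mfap4 (-1.03). The 1 that rose was Sox2 (2.65, adjusted p = 3.68e-06), with 1 to 6 counts in WT and 15 to 50 in KO and no alternatives examined. By the adjusted p-value alone 2 dermal markers were higher and 4 lower. The adjusted p of Prdm1, 0.0149, was 0.0584 with DESeq2, 0.0721 without KO2 and 0.0541 without KO3.

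Dpt (ENSMUSG00000026574, chr1:164624213-164651835, plus strand) had 12.2, 10.1 and 11.8 FPKM in WT and 6.61, 6.78 and 6.81 FPKM in KO. All KO libraries were lower, and they differed little from each other. The log2 fold change was -0.76 (SE 0.12, adjusted p = 3.02e-08), short of the DEG limit. Of its neighbours, Atp1b1 also had a lower level in KO (-0.48, adjusted p = 7.84e-04) and Xcl1 had 0 counts. S100a4 (ENSMUSG00000001020, chr3:90511078-90513352, plus strand) had 19.99, 11.7 and 17.8 FPKM in WT and 12.5, 13.2 and 9.37 FPKM in KO. The genotypes overlapped, since WT2 was lower than KO1 and KO2. The log2 fold change was -0.49 (SE 0.16) with an adjusted p of 0.0246 in edgeR, but the adjusted p was 0.178 in DESeq2 and was below 0.05 in 5 of 17 alternatives. It was 0.197 without WT1, 0.157 without WT3, 0.0516 without KO1 and 0.349 without KO3. The neighbours of S100a4 in the same gene cluster, S100a3 and S100a5, had 3 to 11 and 0 to 5 counts. Of a list of 15 other S100 genes and S100pbp, the gene of an S100-binding protein, 15 of 16 were tested and 1, S100a16, was a DEG (1.15, adjusted p = 0.0122). This call was lost with DESeq2 (0.0603) and limma-voom (0.0567), and without KO2 (0.0563) or KO3 (0.0673). Genes that overlap Pdgfra, Dpp4, Pi16, S100a4 or Dpt had at most 3 counts in any library.

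**Figure D4:**
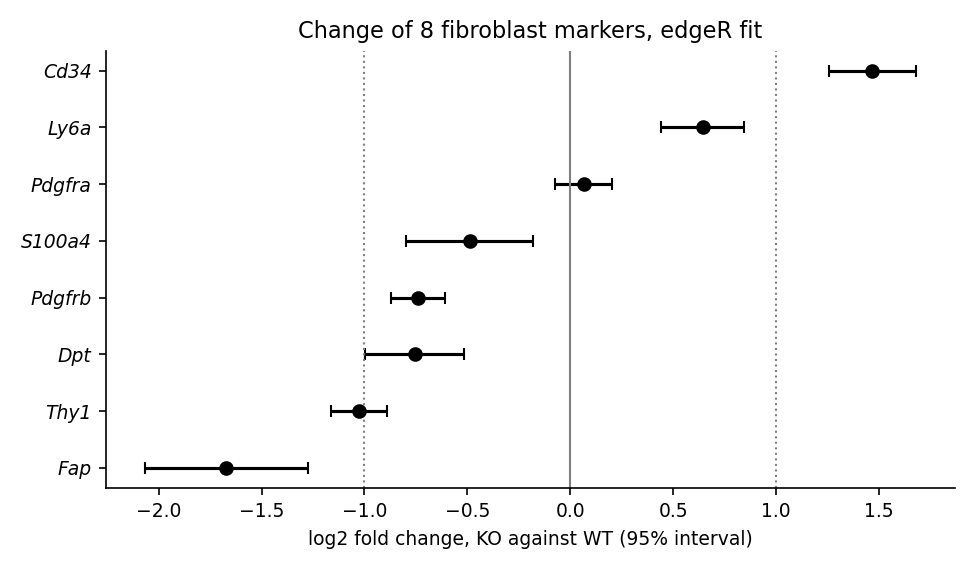
Log2 fold change of KO against WT from the edgeR fit (point) with its 95% interval (bar) for the 8 genes with more than 3 counts in every library, and dotted lines at -1 and 1. The interval of Cd34 lies wholly above 1 and that of Fap wholly below -1, that of Thy1 spans -1, and that of Pdgfra spans 0.

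The cells were also examined for markers of fibroblasts and of other cell types that express these genes. All 15 fibroblast and mesenchyme markers had a mean of at least 1 CPM, and their sum was 29329 to 34401 CPM in WT and 33860.2 to 34858 CPM in KO. None was a DEG, and by the adjusted p-value alone 4 were higher and 2 lower. Alternatives were run for Col1a1 and Fn1 only, and neither passed in all of them. Pericytes carry Pdgfrb, and their 10 other markers summed to 165 to 209 CPM in WT and 132 to 137 CPM in KO. Cspg4 (-0.64) and Mcam (-0.81) were lower together with Pdgfrb, Anpep was higher (1.36), and Kcnj8 and Abcc9 had 0 counts in every library. Notch3 (0.27, adjusted p = 0.476) and Rgs5 (3.21, adjusted p = 0.184, with 0 to 9 counts) went the other way from Pdgfrb without passing. The median log2 fold change was 0.79 over the 8 tested and -0.19 over the 4 with a mean of at least 1 CPM. The smooth muscle list summed to 1793 to 2004 CPM in WT and 1388 to 1452 CPM in KO. Most of each sum was Acta2, with a mean of 1655 CPM in WT and 1245 in KO. By the adjusted p-value 4 of 8 markers were lower, namely Acta2, Myl9, Actg2 and Mylk. Cnn1 (0.06, adjusted p = 0.807), Tagln (-0.20, 0.744), Myh11 (-0.47, 0.682) and Lmod1 (-0.33, 0.256) did not pass. Alternatives were run for Acta2 and Myl9 only, and Myl9 did not pass in all of them. Endothelial and blood cells carry Cd34, and their lists summed to 9.45 to 11.3 and 2.12 to 2.74 CPM in WT, and to 9.87 to 13.6 and 2.40 to 3.68 CPM in KO. The defining genes Tie1, Emcn, Cldn5, Spi1 and Itgam had 0 counts, and Cdh5 and Ptprc had at most 3 in any library. Of the 10 endothelial markers 1 was a DEG, Erg, higher in KO like Cd34 (1.66, adjusted p = 0.0341). It had 2, 5 and 8 counts in WT and 14, 19 and 22 in KO, and alternatives were not examined for it. Pecam1, with 0 to 5 counts in WT and 0 to 1 in KO, went the other way without passing (-2.48, adjusted p = 0.504). Tek, with 0 to 1 counts in WT and 3 to 5 in KO, did not pass (adjusted p = 0.293), and Kdr had 15 to 66 counts with overlap between genotypes (0.48, adjusted p = 0.300). None of the 11 haematopoietic markers passed by either rule in edgeR.

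Some lists were several-fold higher in KO. Mesothelial markers summed to 11.98 to 15.1 CPM in WT and 53.3 to 60.8 CPM in KO, which moved with Cd34 and Ly6a. Most of the difference was Msln (mesothelin, log2 fold change 3.95). Krt19 was also higher (0.85, adjusted p = 5.08e-04), Bnc1 was lower (-0.60, adjusted p = 0.0184) with no overlap, and Lrrn4 and Muc16 had 0 counts. Epithelial markers summed to 0.713 to 1.25 CPM in WT and 5.71 to 6.74 CPM in KO, where Krt18 made up most. Krt18 (2.94) and Krt8 (4.70, with 0 to 1 counts in WT and 12 to 15 in KO) were DEGs. Alternatives were not examined for Krt8. Epcam (adjusted p = 0.540) and Cdh1 (adjusted p = 0.177) did not pass. Krt5 and Esrp1 had 0 counts, and Krt14, Grhl2, Cldn4 and Ovol1 had at most 3 in any library. Neural markers summed to 34.6 to 39.2 and 111 to 115 CPM, led by Stmn2 (2.91), with Sox10 at 0. Chondrocyte markers summed to 14.2 to 16.5 and 36.1 to 37.1 CPM, with Sox9 (1.37) and Acan (1.12) higher, Col2a1 not passing (0.16, adjusted p = 0.881) and Matn1 and Col9a1 at 0 counts. Adipocyte markers summed to 3.14 to 3.68 and 4.93 to 6.47 CPM, with neither Pparg (0.58, adjusted p = 0.378) nor Cebpa (0.72, adjusted p = 0.0603) passing, and skeletal muscle markers, Actc1 and Tnnt3 among them, to at most 0.314 CPM in any library. The part of such cells in the changes of the 10 genes was not tested.

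**Figure D5:**
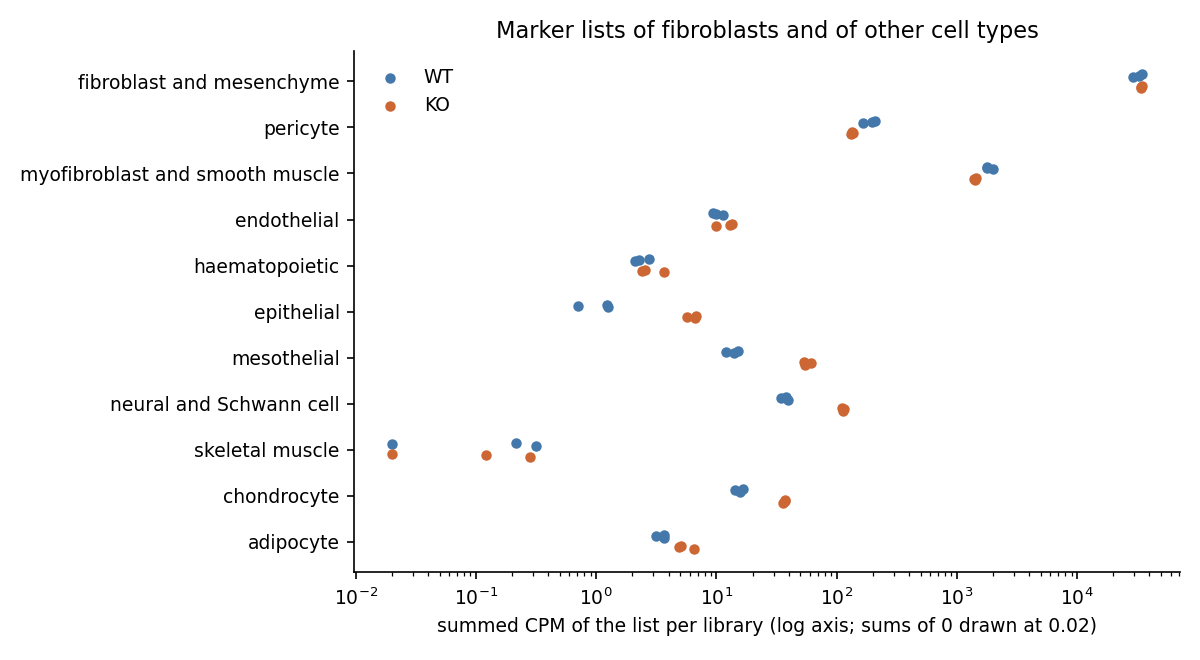
Summed CPM (log axis) of 11 lists of cell type markers in each WT (blue) and KO (orange) library, with sums of 0 drawn at 0.02. The fibroblast list lies between 29329 and 34858 CPM in all libraries. Pericyte and smooth muscle lists are lower in KO, and mesothelial, epithelial, neural, chondrocyte and adipocyte lists are higher.

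Mcm8 itself had 176, 233 and 238 counts in WT and 89, 74 and 66 in KO, a log2 fold change of -1.75 (adjusted p = 4.45e-26), in the direction of the labels. Xist fell from 1196 to 481 CPM and the Y-linked Ddx3y rose from 7.77 to 42.6 CPM, so the sex of the source embryos and the genotype cannot be told apart for any of the 10 genes. Every library held reads of both, with 7605 to 24028 counts of Xist and 95 to 858 of Ddx3y. No library can therefore be called male or female from these 2 genes. The KO libraries were also more alike, with a root mean square deviation from the genotype mean of 0.176 to 0.189 on log2 CPM against 0.212 to 0.260 in WT. For 8 of the 10 genes the SD of CPM was larger in WT. The share over all genes was not computed, and an SD of CPM also grows with level, so the count is not a trait of these genes.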

How the data were processed

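RNA was sequenced as read pairs from 3 WT and 3 KO MEF samples. The authors aligned reads with HISAT2 2.0.5 and counted them per gene with featureCounts 1.5.0-p3, and deposited raw counts and FPKM (counts over gene length and library size). The deposited gene coordinates were GRCm39 (Ensembl), whereas the submitters' processing notes name GRCm38 (mm10). Promoters are GRCm38.p6 and were not mixed with the deposited coordinates.

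The 26898 genes detected (FPKM above 0) in 1 library or more entered edgeR 4.0.16 (R 4.3.3) for the quasi-likelihood test after TMM scaling, with no covariates and Benjamini-Hochberg adjustment over all genes tested. The prior degrees of freedom were infinite, so each gene took its spread from the trend and a gene that varies more gets too small a p-value. CPM were scaled with TMM factors. Values after ± are SDs, SE is that of the log2 fold change, and counting intervals cover counting error only. The floor was 3 counts per library. Alternatives were DESeq2 1.42.0, limma 3.58.1 (voom, and log2 FPKM with pseudocounts of 1 or 0.1), a robust fit, a test against a 2-fold change, RLE scaling, other gene filters, the replicate block, and each library left out in turn. The Dpp4 to Fap ratio was planned on the log2 scale but was compared as a plain ratio, since Dpp4 was at 0 in 2 WT libraries.

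The genes and lists were chosen with earlier results of these data known. From each list, up to 4 DEGs with the largest change and a mean of at least 1 CPM were named, or where there was none the 2 genes with the highest mean. The nearest protein-coding gene on each side and the 3 genes with the nearest pattern to each called gene (mean of at least 1 CPM) were named too. Overlapping genes were examined too. Other list genes were named after their values were seen. Tables and ratios used pandas 2.3.3 and SciPy 1.17.1 under Python 3.11.15. Read-level, splicing and CUT&Tag data were not analysed here.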

Additional observations from a re-analysis of the deposited data

How the results depend on the processing

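The directions of Pdgfra, Pdgfrb, Thy1, Cd34, Ly6a, Fap, S100a4 and Dpt held in all 17 alternatives. Cd34 was a DEG in all 17, Thy1 in 16 and Fap in 15. Beside Cd34, Dpp4 was the only gene called higher, so the number of the 10 genes called higher was 1 with DESeq2, with filterByExpr, with an FPKM above 0 in every library, with no filter, with the replicate block and in the test against a 2-fold change, and ranged from 1 to 2 with 1 library left out; DESeq2 gave no adjusted p for Dpp4, and the 2 stricter filters removed it. The test against a 2-fold change called 157 genes higher and 43 lower, by either rule, among them 1 higher and 1 lower of the 10, and did not call Ptprj, Egr1, Egr2, Ptgs2, Ackr3, Penk, Smoc2, Sparcl1, Itga8, Prdm1, Mfap4, S100a16, Podxl, Anpep or Acan. Among the markers counted by the adjusted p-value alone, Fn1 did not pass with DESeq2 (0.364), the robust fit (0.540), filterByExpr (0.105) or an FPKM above 0 in every library (0.106), Col1a1 did not with an FPKM above 0 in every library (0.0609), and Myl9 did not with limma-voom (0.0539), filterByExpr (0.0564), an FPKM above 0 in every library (0.0551), or without KO1 (0.0541), KO2 (0.141) or KO3 (0.0787). Genes lower by the adjusted p-value alone numbered 645 to 1620 with 1 library left out, with 1620 without WT1 and 645 without KO3, against 1083. With filterByExpr the adjusted p-values were 7.98e-08 for Cd34, 5.73e-08 for Thy1, 4.65e-04 for Fap and 0.123 for S100a4, larger than those reported. Podxl2 passed with filterByExpr (0.0485), the replicate block (0.0362) and without WT1 (0.0189). The Dpp4 to Fap difference was 0.85 on log2 of the ratio of FPKM + 1. Genes near 0 changed sign, namely Egfl7 (-0.00081 with DESeq2, and -0.15 to 0.26 with 1 library left out), Pi16 (-0.55 to 3.04), Prep (-0.017 to 0.017) and Cd68 (-0.064 to 0.31), and the cause was not tested. Same-numbered libraries did not deviate together (correlations -0.0249, -0.0157 and 0.0374), so the numbers do not pair the samples. With the replicate block 445 genes were called higher and 158 lower, and of the 10 genes 1 and 2. Of the named genes, the block ended the call of Dpp4 and Podxl2 passed. Genes with few counts, such as Dpp4 and Pi16, are limited by depth.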
